A study of Mus musculus with 7 samples.

Results

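The voltage-gated sodium, calcium and HCN channel subunits were examined as a group of 36 genes among the 55416 genes of an RNA-seq count table of the mouse prefrontal cortex (PFC). The members were every protein-coding gene whose symbol belongs to the sodium channel alpha and beta families (Scn), the calcium channel alpha1, alpha2delta and beta families (Cacna1, Cacna2d and Cacnb) or the HCN family (Hcn). The rule itself uses symbols and no measured value, though the group was chosen with earlier results of these data known. The animals were female wild-type C57BL/6 mice that had received a recombinant adeno-associated virus (rAAV) in the PFC on both sides. Ctr mice (n = 3 libraries) received an empty vector, Ref mice (n = 2) a vector with the C allele of the human long noncoding RNA PAXIP1-AS1, and Alt mice (n = 2) a vector with the G allele. The vectors carried EGFP and the human synapsin I promoter, which is active in neurons, while the sequenced tissue held every cell type of the region. PAXIP1-AS1 has no mouse counterpart, its transcript was not analysed here, and the age of the sequenced mice is not given in the sources used here. Nothing in the labels says that the libraries of a group came from separate animals, so the p-values measure the spread between these libraries.

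Voltage-gated sodium channels open on depolarization and carry the upstroke of the action potential, with a large pore-forming alpha subunit and small beta subunits that adjust gating and surface expression. Voltage-gated calcium channels let calcium enter on depolarization and so link firing to transmitter release, dendritic signaling and transcription; their alpha1 subunit forms the pore, and the alpha2delta and cytoplasmic beta subunits help it reach the membrane. HCN channels open on hyperpolarization, are modulated by cyclic AMP and set the resting conductance of pyramidal cell dendrites. In bulk tissue, fewer cells of a type and less RNA per cell cannot be told apart.

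Total counts per library lay between 16655697 in Alt replicate 1 and 20750857 in Ctr replicate 3. Of the 17254 genes with enough reads for testing, 31 were members. The 5 members that were not tested had at most 10 reads in any library, namely Scn4a of skeletal muscle (0 to 1 reads), Scn10a (0 to 9) and Scn11a (0 to 7) of peripheral sensory neurons, Cacna1f of the retina (0 to 6) and Cacna1s of skeletal muscle (0 to 10). At this depth a count of 0 allows up to 3 reads, so these genes were at or close to the limit of detection. Levels are given as TMM-normalized counts scaled by library size (CPM) for comparisons between libraries and as FPKM, which divides by gene length, for comparisons between genes. The neuronal markers Rbfox3, Snap25, Syt1, Tubb3, Map2, Elavl4, Nefl and Stmn2 were all present, with a summed level of 5913.5 to 7624.4 CPM per library.

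The promoters of the 3 sodium channel genes that recur below are shown as 300 bases from RefSeq, build GRCm38.p6, reading 5′ to 3′ on the gene's strand, with every CG dinucleotide in capitals. Among the members, Scn4b had the smallest p-value in Ref versus Ctr, Scn7a the second smallest there, and Scn8a the smallest in Alt versus Ctr. They lie at chr9:45138374-45138673 on the plus strand, chr2:66784861-66785160 on the minus strand and chr15:100870395-100870694 on the plus strand.
Scn4b: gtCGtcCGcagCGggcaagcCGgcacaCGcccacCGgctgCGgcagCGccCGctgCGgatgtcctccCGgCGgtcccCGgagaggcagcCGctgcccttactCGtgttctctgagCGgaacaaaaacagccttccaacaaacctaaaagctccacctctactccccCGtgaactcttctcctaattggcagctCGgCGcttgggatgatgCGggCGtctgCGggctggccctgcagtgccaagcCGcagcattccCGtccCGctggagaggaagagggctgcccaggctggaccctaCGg
Scn7a: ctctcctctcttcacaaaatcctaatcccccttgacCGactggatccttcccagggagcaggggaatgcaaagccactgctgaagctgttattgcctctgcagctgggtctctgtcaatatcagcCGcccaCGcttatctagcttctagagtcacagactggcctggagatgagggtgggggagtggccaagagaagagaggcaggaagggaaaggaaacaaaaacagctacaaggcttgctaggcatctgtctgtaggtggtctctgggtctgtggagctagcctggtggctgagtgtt
Scn8a: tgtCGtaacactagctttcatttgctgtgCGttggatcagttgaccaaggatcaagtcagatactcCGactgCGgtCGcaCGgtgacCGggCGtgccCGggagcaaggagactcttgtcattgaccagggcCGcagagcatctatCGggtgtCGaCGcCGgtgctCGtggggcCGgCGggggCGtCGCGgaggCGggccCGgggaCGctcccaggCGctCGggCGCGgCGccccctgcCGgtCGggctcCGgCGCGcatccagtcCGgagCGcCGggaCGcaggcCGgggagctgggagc
The Scn4b promoter held 26 CG dinucleotides, the Scn7a promoter 3 and the Scn8a promoter shown 38. RefSeq lists a further Scn8a start site, whose promoter at chr15:100936021-100936320 held 12 CG dinucleotides (at least as many in 39.6% of all promoters) and is not printed. For the 3 promoters shown, at least as many were present in 16.9%, 76.7% and 4.95% of the 32851 RefSeq mouse promoters of the same length. RefSeq promoters were matched for 26 of the 36 members, with 36 start sites in all, and their median number of CG dinucleotides was 11, against 7 over all promoters. The GC box GGGCGG, searched on both strands, was present in 16 of these 36 promoters (44.4%) and in 35.7% of all promoters. Of the 3 promoters shown, Scn7a had 1 GC box and the other two had none.

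The composition of each class was read from FPKM in the Ctr libraries. Among sodium channel alpha subunits, Scn2a, a major channel of excitatory axons, supplied 51.5% of the summed FPKM. Scn8a of the axon initial segment and nodes followed with 28.5%. Scn1a, which dominates in parvalbumin interneurons, supplied 11.0%, Scn3a, a channel with its peak before birth, 6.21%, and Scn7a, a sodium sensor of glia and some neurons, 2.44%. The remaining alpha subunits were each below 1%, with 0.190% for Scn9a, known from nociceptors. The 5 alpha subunit genes Scn1a, Scn2a, Scn3a, Scn7a and Scn9a lie in a cluster on chromosome 2, where the table lists Scn3a from 65287462 to 65397971 and Scn7a from 66503769 to 66615258. Their sequences are related, and how reads that match several of them were counted is not given in the sources used here.

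Calcium alpha1 subunits were more evenly spread. Cacna1b, the N-type channel of presynaptic terminals, supplied 20.1%, Cacna1e, the R-type channel of dendrites and spines, 19.8%, the T-type Cacna1i 15.9% and the P/Q-type Cacna1a 15.7%. The L-type genes Cacna1c and Cacna1d gave 5.34% and 4.51%. By reads, without division by length, Cacna1e held 35.2% of the class, and its listed length of 25228 bases is the greatest among the members. Cacna2d1 made up 82.6% of the alpha2delta class, and Cacnb3 50.6% of the calcium beta class with Cacnb4 at 25.9%. By reads the order of the 2 beta genes turned, with 40.9% for Cacnb4 and 36.0% for Cacnb3. Hcn2 supplied 85.2% of the HCN class by FPKM and 59.0% by reads.

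**Figure D1:**
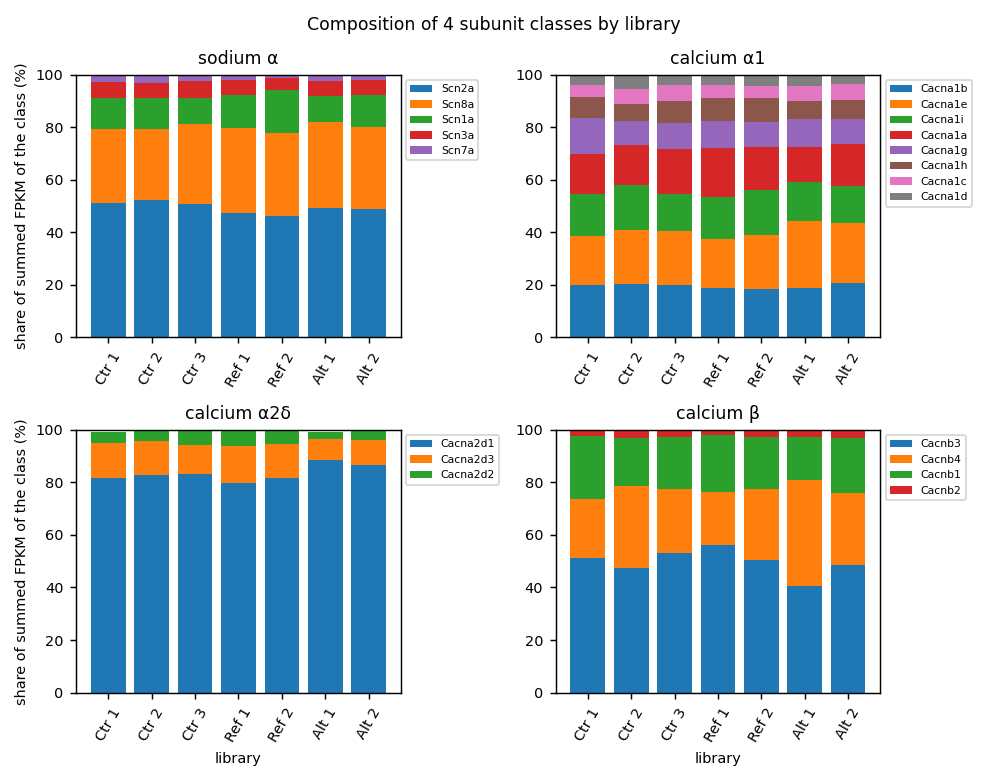
Share of the summed FPKM of the sodium alpha, calcium alpha1, alpha2delta and calcium beta classes (percent) held by each gene in each of the 7 libraries, for genes that reach 1% in at least 1 library. Scn2a, Cacna2d1 and Cacnb3 led their classes in all 7 libraries, while Cacna1b and Cacna1e held similar shares in Ctr (20.1% and 19.8%).

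Group means of these shares were also read in Ref and Alt. Scn2a held 46.7% of alpha subunit FPKM in Ref and 49.1% in Alt, and Cacna2d1 held 80.7% and 87.6% of its class. The Cacna1e share was 19.7% in Ref and 24.1% in Alt, and that of Cacnb4 was 23.5% and 33.9%. The 2 Alt libraries differed for Cacnb4, with shares of 40.2% (replicate 1) and 27.7% (replicate 2), the latter within the Ctr range of 22.1% to 31.2%. For Cacna1e they were 25.3% and 22.8%, above the 18.4% to 20.7% of the other libraries. These shares were not corrected for the relation with gene length that is described below.

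The comparison of Alt with Ctr asks how the G allele vector differed from the empty vector. The quasi-likelihood test of edgeR gave 13 of the 31 members higher in Alt and 1 lower, each with an unadjusted p below 0.05, against 9.45% of all genes tested that were higher and 10.3% that were lower. With Benjamini-Hochberg adjustment over all genes, edgeR called 0 members, as it called 0% of all genes, and the smallest adjusted p of a member was 0.12. DESeq2's Wald test on the same genes called 7 members at an adjusted p of 0.05, all higher, against 8.5% of the genes to which it gave an adjusted p. The log2 fold change was positive for 24 of 31 members with a median of 0.42, against a median of -0.03 over all genes. Leaving out Alt replicate 1 reduced the 13 to 2 and the median to 0.15, while the share of higher genes over the whole table became 3.68%. Leaving out Ctr replicate 1 reduced the 13 to 7, with 5.69% of all genes higher.

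Among the 7 sodium alpha subunits tested, 4 were higher in Alt at this unadjusted threshold. Scn8a had 278, 296 and 362 CPM in Ctr, 329 and 394 in Ref, and 682 and 425 in Alt. Both Alt libraries were above every other library, Alt replicate 1 by far the more. The log2 fold change of Scn8a against Ctr was 0.83 ± 0.20 (standard error; edgeR, unadjusted p = 0.00157, adjusted p = 0.12; DESeq2 adjusted p = 0.00505). Without Alt replicate 1 it was 0.45 (edgeR, unadjusted p = 0.0264).

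Scn2a stood at 416, 464 and 497 CPM in Ctr, 390 and 471 in Ref, and 842 and 545 in Alt. Its Alt libraries were likewise the 2 highest, and the difference from Ctr was 0.60 ± 0.19 on the log2 scale (edgeR, unadjusted p = 0.00851). With the correction for gene length described below it was 0.21 (edgeR, unadjusted p = 0.12). Without Alt replicate 1 the Scn2a difference was 0.25 and no longer passed. Scn1a measured 81.3, 90.7 and 82.3 CPM in Ctr, 89.0 and 145 in Ref, and 150 and 116 in Alt, a log2 difference from Ctr of 0.65 ± 0.20 (edgeR, unadjusted p = 0.00742) that was 0.46 without Alt replicate 1 and did not pass there. One Ref library reached the level of Alt for this gene, so that Ref and Alt overlapped. The 7 interneuron markers summed to 286 to 360 CPM in Ctr, 270 and 278 in Ref, and 257 and 252 in Alt. At an unadjusted p of 0.05 in edgeR, 3 of them were lower in Alt than in Ctr. These were Sst (721 bases), Pvalb (1041) and Vip (3402), against a median length of 4051 over all genes tested. Gad1 (7639 bases) and Slc32a1 (2797) gave log2 differences of -0.35 and -0.01, and Gad2 (5876) and Lhx6 (4805) 0.16 and 0.18. Shorter genes lay lower in Alt in general, as described below. The part of the interneuron markers in the Scn1a values was not tested. Scn3a had 50, 50.2 and 64.3 CPM in Ctr, 45.8 and 48.7 in Ref, and 93.5 and 63.0 in Alt. Alt replicate 2 lay within the Ctr range, and the log2 difference was 0.51 ± 0.19 (edgeR, unadjusted p = 0.0223), or 0.20 without Alt replicate 1, which did not pass. Scn9a, at 1.54 to 1.87 CPM in Ctr and 4.42 and 2.45 in Alt, did not reach the threshold (log2 difference 1.03 ± 0.49).

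Of the 8 calcium alpha1 subunits tested, all had a positive log2 fold change and 6 were past the unadjusted threshold. The sign of Cacna1d turned without Alt replicate 1 (-0.05) and with the correction for gene length described below (-0.11), and those of Cacna1g (-0.07) and Cacna1i (-0.01) turned where both were applied. Cacna1e had 237, 297 and 342 CPM in Ctr, 290 and 320 in Ref, and 646 and 401 in Alt. The Alt libraries were above all others, with a log2 difference from Ctr of 0.84 ± 0.21 (edgeR, unadjusted p = 0.00177; DESeq2 adjusted p = 0.0056). Without Alt replicate 1 it was 0.46 (edgeR, unadjusted p = 0.029), and with the length correction it was 0.19 and did not pass. Cacna1c, the L-type channel that couples calcium entry to transcription, had 49.1, 73.0 and 83.5 CPM in Ctr, 69.0 and 62.8 in Ref, and 127 and 94.4 in Alt (log2 difference from Ctr 0.69 ± 0.22). Ctr replicate 1 was the lowest library here, and the 2 Alt libraries the highest. With the length correction the Cacna1c difference was 0.13 (edgeR, unadjusted p = 0.426). Without Alt replicate 1 the Cacna1c difference was 0.46 and did not pass. Cacna1c overlaps Dcp1b (82 to 197 reads) and Cacna1d overlaps Dcp1a (339 to 511 reads) and Chdh (51 to 111) on the opposite strand, and reads of such pairs cannot be told apart where the counting ignored strand.

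Cacna1b had 102, 114 and 133 CPM in Ctr, 113 and 115 in Ref, and 192 and 143 in Alt (log2 difference from Ctr 0.52 ± 0.17). Cacna1a, which with Cacna1b drives fast transmitter release, had 94.7, 106 and 138 CPM in Ctr, 139 and 126 in Ref, and 170 and 137 in Alt (0.44 ± 0.18). The N-type gene separated Alt from Ctr and the P/Q-type gene did not, since Alt replicate 2 fell just below the highest Ctr library. Without Alt replicate 1 the log2 differences were 0.29 for Cacna1b and 0.28 for Cacna1a, and neither passed. For the T-type channels, which open near rest and support burst firing, Cacna1g had 71.9, 51.5 and 66.2 CPM in Ctr, 61.9 and 60.7 in Ref, and 108 and 66.6 in Alt (log2 difference from Ctr 0.47 ± 0.21). Cacna1i had 81.8, 96.4 and 92.7 CPM in Ctr, 94.7 and 104 in Ref, and 147 and 98.3 in Alt (0.44 ± 0.18). In both genes Alt replicate 2 was close to the Ctr libraries, and without Alt replicate 1 the log2 differences were 0.08 for Cacna1g and 0.12 for Cacna1i. The remaining alpha1 genes, Cacna1h and Cacna1d, gave log2 differences of 0.42 and 0.34 that did not pass, and 0.15 and -0.05 without Alt replicate 1.

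**Figure D2:**
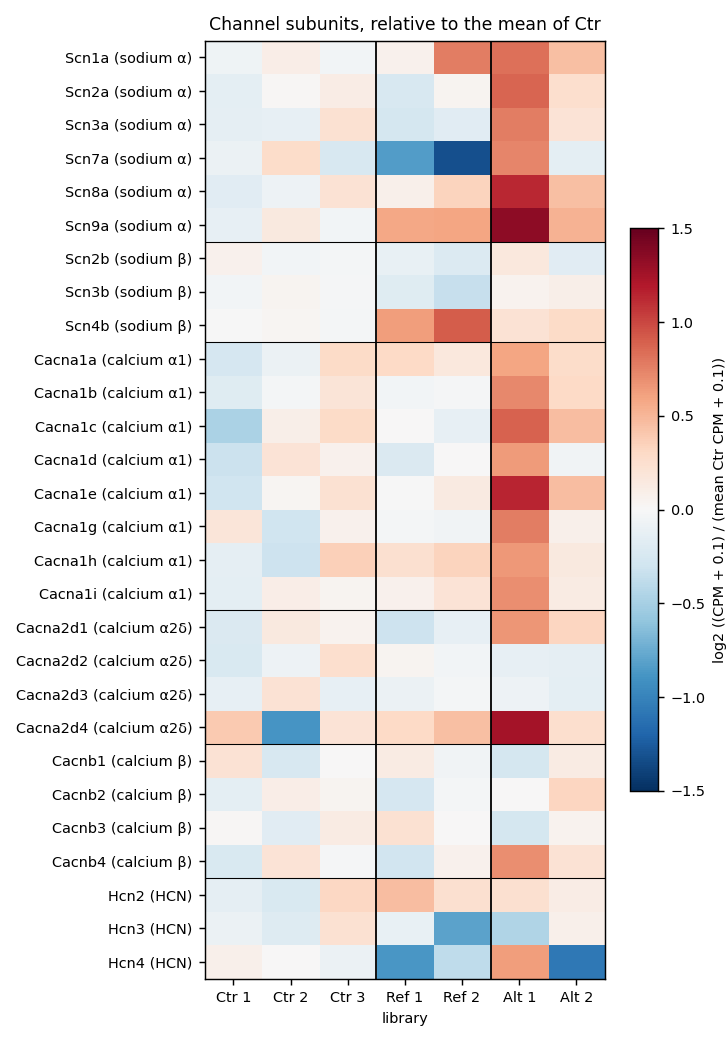
Log2 ratio of each library's CPM to the Ctr mean (with 0.1 CPM added to both) for 28 of the 31 members tested, grouped by class; red is above and blue below the Ctr mean. The column of Alt replicate 1 is red for most sodium alpha and calcium alpha1 genes, Alt replicate 2 is paler, and Scn4b and Scn7a stand out in the 2 Ref columns.

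The auxiliary subunits were less uniform. Cacna2d1, the alpha2delta subunit that binds gabapentin, had 352, 452 and 423 CPM in Ctr, 330 and 377 in Ref, and 645 and 512 in Alt, with a log2 difference from Ctr of 0.50 ± 0.17 (edgeR, unadjusted p = 0.0108). Its Alt libraries were above all others, and without Alt replicate 1 the difference was 0.33 and did not pass. With the length correction the Cacna2d1 difference from Ctr was 0.15 (edgeR, unadjusted p = 0.225). Cacnb4 had 226, 305 and 260 CPM in Ctr, 216 and 275 in Ref, and 428 and 308 in Alt, a log2 difference of 0.48 ± 0.19, with Alt replicate 2 barely above the highest Ctr library and a difference of 0.22, which did not pass, without Alt replicate 1. Cacnb3, the most abundant beta subunit gene by FPKM, had 235, 207 and 253 CPM in Ctr, 271 and 232 in Ref, and 193 and 240 in Alt. Its groups overlapped. Cacna2d2, Cacna2d3, Cacnb1 and Cacnb2 had log2 differences between -0.13 and 0.17, none past the threshold. Cacna2d4 had only 18 to 65 reads per library, and it overlaps Lrtm2 on the opposite strand (716 to 1227 reads), with the same limit as for Cacna1c.

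Hcn2, an HCN channel with a strong response to cyclic AMP, had 155, 145 and 211 CPM in Ctr, 234 and 201 in Ref, and 201 and 183 in Alt, with overlapping groups and a log2 difference of 0.17. Hcn3 and Hcn4 had at most 14.3 and 6.24 CPM and did not pass.

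Among the sodium beta subunits, Scn2b, Scn3b and Scn4b had log2 differences of 0.01, 0.06 and 0.25 that did not pass.

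**Figure D3:**
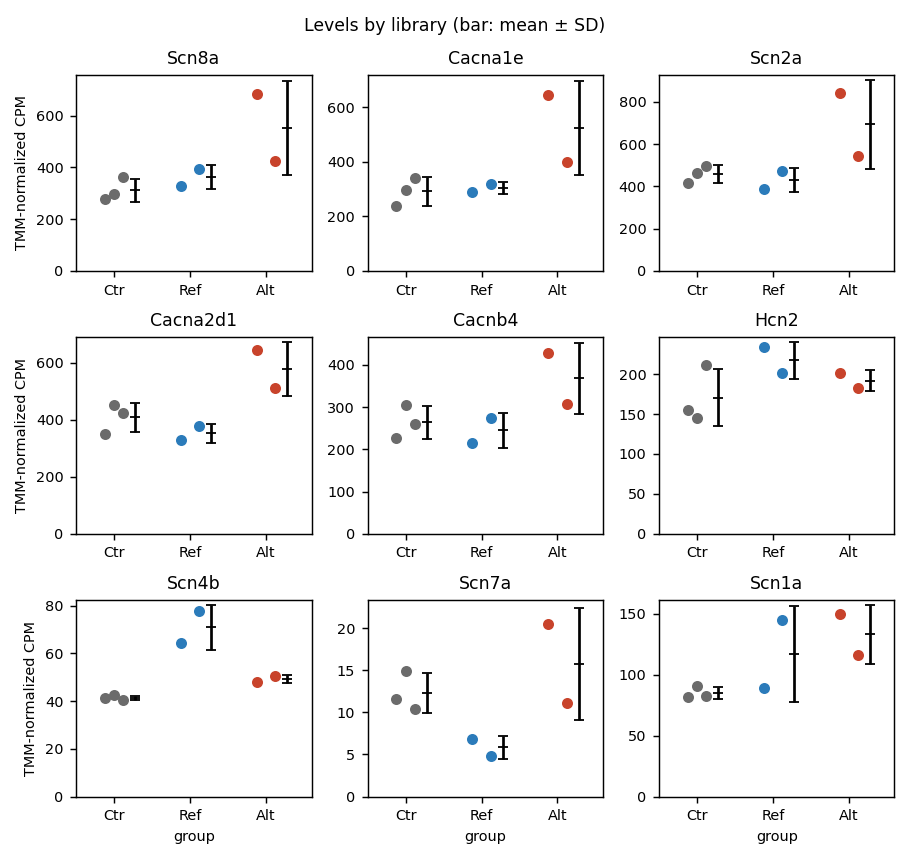
TMM-normalized CPM of 9 subunit genes in each library (points), with the mean ± SD of each group (black bar, n = 3, 2 and 2). Scn8a, Cacna1e, Scn2a and Cacna2d1 have both Alt points above all others, Hcn2 overlaps between the groups, and the Ref points lie apart for Scn4b (64.2 and 77.6) and Scn7a (6.82 and 4.86).

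The size of the Alt versus Ctr difference followed gene length within the group. The tested members had a median listed length of 9763 bases, against 4051 over all genes tested. Across the 31 members, Spearman's rho between length and log2 fold change was 0.75, and it was 0.33 across all genes. Genes are not independent replicates, and all points share the same 7 libraries. At a cut of 8000 bases, chosen after the values were seen, 13 of 20 longer members were higher in Alt (65.0%), against 33.4% of the 2727 genes of that length, and their median log2 differences were 0.50 and 0.30. Of the 11 members up to 8000 bases, 0 were higher and 1 was lower, with a median of 0.01. Of the 14527 genes of that length 719 (4.95%) were higher and 1736 lower, with a median of -0.10, so both counts of members lie near the background.

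This relation was present in the libraries as a whole. Genes of all kinds were split into quartiles of length, and the median log2 deviation of each library from the Ctr mean was taken. For the 4318 shortest genes, Alt replicate 1 stood at -0.56, Alt replicate 2 at -0.18 and the other 5 libraries between -0.06 and 0.11. For the 4312 longest genes the 2 Alt libraries stood at 0.36 and 0.13 and the others between -0.09 and 0.08. With offsets that removed a loess curve on length from each library, rho across the members became 0.21 and 2 members were higher in Alt at an unadjusted p of 0.05 in edgeR, against 7.3% of all genes. This count lies near the background. The 2 members were Scn8a (log2 difference 0.35, unadjusted p = 0.0187) and Hcn2 (0.37, unadjusted p = 0.0415). Hcn2 has a listed length of 3195 bases and a log2 difference of 0.17 in the main fit, and its Alt and Ctr libraries overlapped. With the length correction the median over the members was 0.14. With both the length offsets and Alt replicate 1 left out, a setting chosen after the data were seen, 0 members were higher and 1 was lower (Hcn4, log2 difference -1.16), against 2.89% and 4.53% of all genes, so both counts lie near the background. The median was 0.07.

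**Figure D4:**
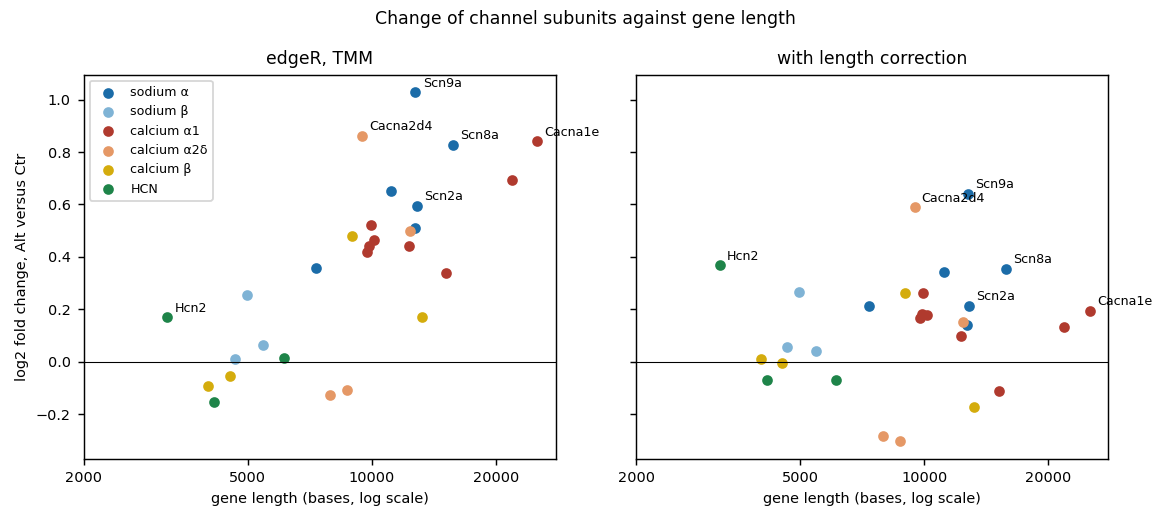
Log2 fold change of Alt versus Ctr against listed gene length (bases, log scale) for 28 of the 31 members tested, colored by class, from edgeR with TMM (left) and with the length correction (right). On the left the points lie higher with length, with Cacna1e the longest (rho 0.75 over the 31 members tested), and on the right they spread around 0 over the range of lengths (rho 0.21).

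The comparison of Alt with Ref sets the G allele against the C allele. It shares the Alt libraries with the comparison above, so both are given side by side and not as separate evidence. Here 10 members were higher and 2 lower at an unadjusted p of 0.05 in edgeR, against 6.71% and 8.83% of all genes. No member passed the adjusted threshold in edgeR, where 0.0058% of all genes did, and DESeq2 called 5 members (Cacna1e, Cacna2d1, Scn2a, Scn3a and Scn7a), against 3.82% of the genes with an adjusted p. The median log2 difference over the members was 0.33, against -0.04 over all genes. The 10 became 3 without Alt replicate 1 and 5 without Ref replicate 1, where 2.35% and 1.3% of all genes were higher.

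The 2 alleles differed for Cacna2d1 by 0.71 ± 0.18 on the log2 scale (edgeR, unadjusted p = 0.00229), a difference that was 0.43 with the length correction (unadjusted p = 0.0053) and 0.55 without Alt replicate 1. Cacna1e gave 0.78, Cacna1c 0.75, Scn3a 0.73, Scn2a 0.69, Scn8a 0.62, Cacnb4 0.58 and Cacna1b 0.55. Without Alt replicate 1 these were 0.40, 0.53, 0.43, 0.35, 0.25, 0.34 and 0.33 in the same order, and none of the 7 passed. In the fit with all libraries, each of these genes was also past the threshold against Ctr. Scn7a, at 1.43 ± 0.34, was higher in Alt than in Ref (edgeR, unadjusted p = 0.00137) while its Alt and Ctr libraries overlapped, and the difference was 0.94 without Alt replicate 1. Scn1a and Cacna1a, past the threshold against Ctr, gave log2 differences of 0.19 and 0.21 against Ref. Scn4b was among the lower members (-0.52 ± 0.17), and without Ref replicate 2 its difference was -0.37 and did not pass. With the length correction 7 members were higher (Cacna1b, Cacna2d1, Cacnb4, Scn2a, Scn3a, Scn3b and Scn7a) and Scn4b alone was lower, against 7.42% and 5.6% of all genes in the same fit.

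The comparison of Ref with Ctr asks what the C allele vector did against the empty vector. Only 3 members passed an unadjusted p of 0.05 in edgeR, 2 of them higher and 1 lower, against 2.19% and 0.945% of all genes. The median over the members was -0.03 and rho with length was -0.001. At the adjusted threshold edgeR called 0% of genes and no member, and DESeq2 called 1 member, Scn4b, against 0.0551% of the genes with an adjusted p.

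Scn4b encodes a beta subunit that shapes resurgent sodium current and is rich in striatal projection neurons and some long-range projection neurons. It had 41.3, 42.4 and 40.5 CPM in Ctr, 64.2 and 77.6 in Ref, and 48.1 and 50.5 in Alt. The 3 groups did not overlap, Ref being highest and Alt between. The log2 difference of Ref from Ctr was 0.78 ± 0.15 (edgeR, unadjusted p = 0.000309, adjusted p = 0.76; DESeq2 adjusted p = 0.0273). It was 0.72 with the length correction and between 0.63 and 0.91 with each library left out in turn. The gene lies on chromosome 9 of the table at 45049693 to 45065450 on the plus strand.

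Marker levels of several cell types were read beside Scn4b in the Ref libraries. The 8 oligodendrocyte markers summed to 3905.9 and 4837.2 CPM in Ref, against 2327.5 to 3250.1 in Ctr and 2250.1 to 2780.9 in Alt, and 6 of the 8 were higher in Ref than in Ctr at an unadjusted p of 0.05, with a median log2 difference of 0.77. The 4 markers of oligodendrocyte precursors summed to 382 and 371 CPM in Ref, against 246 to 320 in Ctr, with 2 of 4 higher at that threshold. Among the astrocyte markers 2 of 6 were higher. The 8 markers of striatal projection neurons summed to 201 CPM in Ref replicate 1 and 147 in Ref replicate 2, against 151 to 165 in Ctr, and 0 of 8 were past that threshold, with 5 of 8 positive and a median log2 difference of 0.25. No oligodendrocyte or striatal marker was at 0 in all libraries. The part of these cell types in the Scn4b difference was not tested.

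Scn7a had 11.6, 14.9 and 10.4 CPM in Ctr, 6.82 and 4.86 in Ref, and 20.5 and 11.1 in Alt, from 94 to 315 reads per library. Both Ref libraries were below all others. The log2 difference of Ref from Ctr was -1.07 ± 0.32 (edgeR, unadjusted p = 0.00577, adjusted p = 1), and -1.13 with the length correction. Without Ref replicate 2 it was -0.86 and no longer passed (unadjusted p = 0.0606). The 6 astrocyte markers summed to 4827.1 to 6513.2 CPM in Ctr, 6581.9 and 8244.6 in Ref, and 11072.3 and 7620.6 in Alt. The sum was carried by Slc1a2, a gene of 13133 bases, with 9527.8 CPM in Alt replicate 1. In Ref versus Ctr 5 of the 6 markers had a positive log2 difference (median 0.32). Of these, 2 were higher at an unadjusted p of 0.05 in edgeR. In Alt versus Ctr 1 of the 6 markers was higher at that threshold (median log2 difference 0.11). Their part in the Scn7a difference was not tested. Scn1a, with its log2 difference of 0.46 ± 0.20 (edgeR, unadjusted p = 0.0412), rested on Ref replicate 2, since it was 0.06 without that library and 0.78 without Ref replicate 1.

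**Figure D5:**
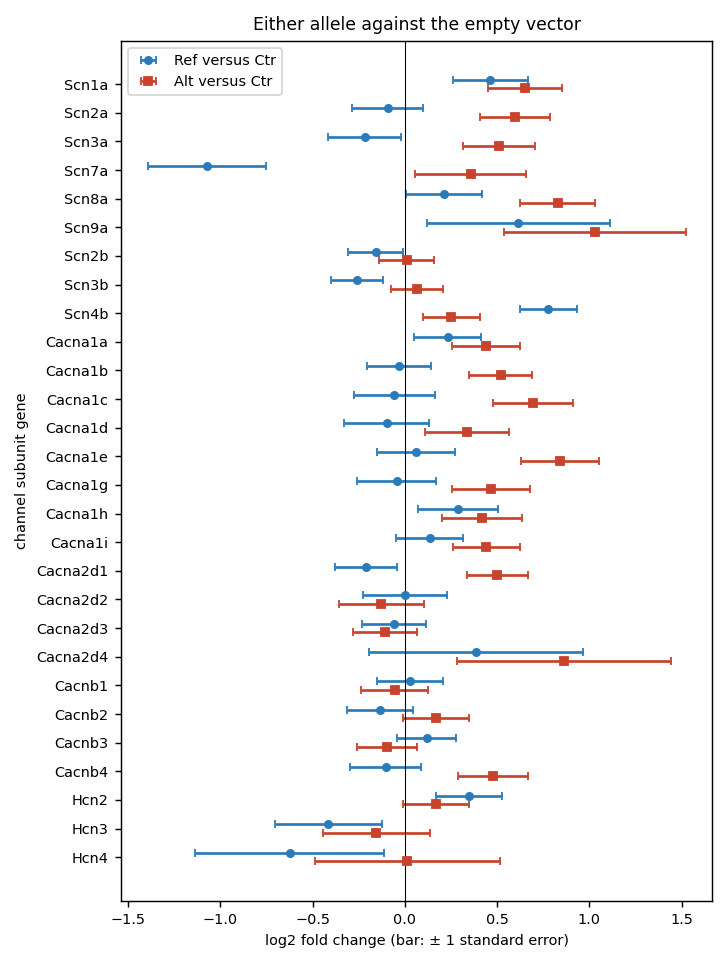
Log2 fold change (point, with bar of ± 1 standard error, edgeR) of Ref versus Ctr (blue) and Alt versus Ctr (red) for 28 of the 31 members tested; both share the Ctr libraries. The red points of the calcium alpha1 genes all lie above 0 (0.34 to 0.84), and the blue points lie on both sides of 0, from Scn7a (-1.07) to Scn4b (0.78), with wide bars for low genes such as Hcn4 (-0.62) and Scn9a (0.62).

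The study ordered the groups as Ctr, Ref and Alt, and the members were tested for a linear trend over the scores 0, 1 and 2. At an unadjusted p of 0.05 in edgeR, 11 members had a positive trend and 0 a negative one, against 8.85% and 7.89% of all genes, and at the adjusted threshold edgeR called 0% of genes and no member. DESeq2 with the same score called 3 members, against 5.31% of the genes with an adjusted p. The slope of Scn8a was 0.40 ± 0.10 on the log2 scale per step (edgeR, unadjusted p = 0.00185) and that of Cacna1e 0.40 ± 0.11 (unadjusted p = 0.00353). For Scn8a the Ref mean lay between those of Ctr and Alt, and for Cacna1e the Ref mean was close to that of Ctr. Only 2 members had a positive trend with the length correction, 3 without Alt replicate 1 and 4 without Ctr replicate 1, against 6.64%, 3.72% and 5.42% of all genes in the same fits, so the count with the length correction lies near the background.

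Proteins that anchor, traffic or modulate these channels were read from a list of 29 genes, of which 27 were in the table and all 27 were tested. In Alt versus Ctr 9 were higher and 2 lower at an unadjusted p of 0.05 in edgeR, with a median log2 difference of 0.38, and in Alt versus Ref 5 were higher and 3 lower. Over all genes the shares were 9.45% and 10.3%, and 6.71% and 8.83%, so the counts of lower genes were near the background. All 9 genes higher in Alt than in Ctr except Fgf14 were longer than 8000 bases. Among all genes of that length 33.4% were higher, with a median log2 difference of 0.30. The list was not read with the length correction, so its count of higher genes cannot be told apart from the relation with length. None passed in Ref versus Ctr. The NALCN channel partners Unc80 and Unc79 were higher in Alt than in Ctr by 0.74 and 0.66, ankyrin-G (Ank3), which anchors sodium channels at the initial segment, by 0.75, and Fgf14, which binds sodium channel tails, by 0.58. Alt replicate 1 was the highest library for these 4 genes, with 783 CPM for Unc80 and 592 for Ank3, while Alt replicate 2 had 486 and 366, against at most 438 and 344 in Ctr and 444 and 361 in Ref. Lower in Alt were Rem2, a small GTPase that inhibits calcium channels, with a log2 difference of -2.35 at a level of 0.39 to 4.52 CPM, and the calmodulin gene Calm2 with -0.75. The lengths ran the same way, with 34838 bases for Ank3 and 14425 for Unc80 against 2251 for Rem2 and 1467 for Calm2, while Fgf14 had 4182.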

How the data were processed

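Poly(A)-selected RNA of the PFC was sequenced from 7 libraries (Ctr 3, Ref 2, Alt 2). The authors deposited 1 table of unnormalized read counts per gene, with gene lengths and FPKM values, which the authors scaled by gene length and library total. The submitters' processing notes name STAR and featureCounts, and hg19 as a genome build, which is human; the mouse build, the strand setting and the versions are not given in the sources used here. Coordinates of genes follow the table, and promoters follow RefSeq GRCm38.p6. The tests used edgeR 4.0.16 under R 4.3.3 (TMM, filterByExpr, glmQLFit and glmQLFTest on group means over all 7 libraries, or on a score of 0, 1 and 2) and DESeq2 1.42.0 as an alternative. P-values are two-sided and were adjusted by Benjamini-Hochberg over all genes tested. The length correction used offsets from a loess curve of span 0.3 per library. The scripts were tested on simulated data. Values in every library are given for members with an unadjusted p below 0.05 in a pairwise comparison and for the most abundant gene of each class, except for 3 members that enter the counts but are not reported here, and of the associated genes the 6 with the smallest p in Alt versus Ctr are named. The members and lists were chosen with earlier results of these data known. The TPM values that the authors deposited, normalized by gene length to a fixed sum per library, human samples and the AAV transcript were not used here.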

Additional observations from a re-analysis of the deposited data

How the results depend on the processing

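Counts of members are given at an unadjusted p of 0.05 in edgeR, or at an adjusted p of 0.05 where stated. In Alt versus Ctr, the 13 higher members became 2 with the length correction, 3 with the replicate block and length correction together, 0 with the length correction and no Alt replicate 1 (added after seeing the data), and 2 to 17 with each library left out. The 1 lower member became 0 with the length correction, with the block, with both and with only the 2 groups fitted, and 0 to 1 with a library left out. At the adjusted threshold 0 members became 7 in DESeq2, 6 without the low-count filter and 0 to 13 with a library left out, 13 being the value without Alt replicate 2; over all genes DESeq2 called 1097, the unfiltered fit 1484 of 26895 and the fit without Alt replicate 2 3451 of 18848. In Alt versus Ref, the 10 higher became 3 with the length correction and no Alt replicate 1 and 3 to 14 with a library left out; the 2 lower became 1 with the length correction, the block, both, or no Alt replicate 1 and length correction, and 1 to 2 with a library left out; adjusted calls became 5 in DESeq2, 7 without the filter and 0 to 14 with a library left out. In Ref versus Ctr the 2 higher became 1 to 3 and the 1 lower 0 to 1 with a library left out; the 1 lower became 3 with the length correction, 2 with block and length correction, and 3 with the length correction and no Alt replicate 1; adjusted calls were 1 in DESeq2 and 1 without the filter. The 11 positive trends became 2 with the length correction, 2 with block and length correction, 0 with the length correction and no Alt replicate 1, and 3 to 13 with a library left out; negative trends numbered 1 without the filter, 1 with the length correction and no Alt replicate 1, and 0 to 1 with a library left out; adjusted trends numbered 3 in DESeq2 and 4 without the filter. Shares over all genes moved with the setting as well. In Ref versus Ctr, 0.945% were lower in the main fit, 3.27% with the length correction and 3.65% with block and length correction. In Alt versus Ref, 8.83%, 5.6% and 3.95% were lower in these fits. Positive trends made up 8.85%, 6.64% and 5.21%. Adjusted calls in DESeq2 and without the filter were 429 and 850 for Alt versus Ref. They were 6 and 40 for Ref versus Ctr, and 596 and 1136 for the trend. The length correction and the fits without Alt replicate 1 rest on removing length-related signal or a library by construction. For the other settings the cause was not tested.

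With the length correction and no Alt replicate 1, direction turned, among the named genes past the threshold, in Alt versus Ctr for Cacna1g (-0.074) and Cacna1i (-0.0111), and in the trend for Scn2a (-0.0089).

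The libraries share replicate numbers in the labels, but same-numbered libraries did not deviate together, with correlations of -0.10 and -0.10 between Alt and Ctr, -0.09 between Alt and Ref, and 0.06 and 0.07 between Ref and Ctr. With the replicate number as a block, Alt versus Ctr gave 10 higher members and 0 lower (6.54% and 6.1% of all genes), Alt versus Ref 9 and 1 (3.76% and 5.25%), Ref versus Ctr 3 and 1 (1.79% and 0.707%), and 9 trends were positive and 0 negative (6.99% and 5.78%). Groups of 2 libraries limit every comparison, and Alt replicate 1 had the fewest reads. Fits that leave an arm with 1 library take its spread from the other groups.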
